A study of Drosophila melanogaster with 54 samples.

Results

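A set of 96 genes was examined whose RNA peaked in the middle of Drosophila melanogaster embryogenesis, among 17481 genes counted in 54 single embryos. Members were chosen by their measured levels. The mean level of a gene had to be highest at stage 10 or 12, to reach at least 20 CPM there (reads of the gene scaled to a fixed total of gene counts), and to be at most 25% of that peak at both stage 5 and stage 15. Of the genes counted, 4901 had their highest mean at stage 10 or 12 and 853 of these reached 20 CPM. The 96 that also met both limits comprised 93 protein-coding genes and 3 noncoding RNAs, with 50 highest at stage 10 and 46 highest at stage 12. The stage means that chose the genes are given as a description. Tests of single genes are given for 2 contrasts, stage 12 against stage 10 and stage 8 against stage 6. Neither is independent of the choice, which used the means of stages 10 and 12 and asks for a low level at stage 5 and a peak after stage 8, so counts over the members describe the set and support nothing.

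The embryos fell into 8 groups, stages 4, 5, 6, 8, 10, 12, 13 and 15, with 5, 9, 5, 5, 9, 5, 8 and 8 embryos in that order. Each library was made from a single hand-picked embryo that had been staged by its shape, and an embryo is named here by its stage and the letter in its title. The labels give no strain, genotype, treatment, sex, parentage or collection, and the p-values therefore reflect only how far these embryos differ from each other. Whole embryos were crushed, so for every value below fewer cells of a type and less RNA per cell cannot be told apart.

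At stage 4 the fly embryo is a syncytium living largely on RNA laid down by the mother, and at stage 5 cells form while the zygotic genome takes over. Gastrulation starts at stage 6, the germ band extends through stage 8, is fully extended at stage 10 and retracts at stage 12. In the extended germ band the ectoderm gives rise to neuroblasts, the stem cells of the nerve cord, in waves set by proneural genes and limited by Notch signalling. The mesoderm divides in the same period into visceral muscle, body muscle and heart, and the tracheal placodes invaginate. By stage 15 most organs are differentiating and most cells outside the nervous system have left the mitotic cycle.

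Gene counts ranged from 1632448 per embryo, in stage 12 embryo C, to 12863155, with a median of 4713817. Of the libraries, 8 carried no strand information, those of embryos A, B, F and G at stages 13 and 15. Chorion and yolk protein genes, which mark adult female tissue, summed to 1.30 to 53.9 CPM per embryo with a median of 4.30, and none of the 9 was at 0 in every embryo. The choice had sharp edges. The lowest peaks inside it were those of CG30287 at 20.9 and TM4SF at 21.5 CPM, and the highest just outside were those of Acsx3 at 19.8 and Hk at 19.3 CPM. At stage 5, lncRNA:CR33963 and trsn lay just inside at 24.2 and 23.2% of their peaks, and CG31125 and Brd just outside at 25.8 and 26.9%. At stage 15, lncRNA:iab8 and Rim2 lay just inside at 24.99 and 24.3%, and dap and Dlish just outside at 25.1 and 25.6%.

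Together the 96 genes made up a mean of 4017 ± 354 CPM at stage 4 and 1261 ± 106 CPM at stage 5 (SD over embryos). Stages 6 and 8 had 3737 ± 385 and 6461 ± 393 CPM, stages 10 and 12 had 11335 ± 1071 and 12341 ± 1218 CPM, and stages 13 and 15 had 5586 ± 849 and 2112 ± 333 CPM. The stage 4 sum lay above the stage 5 sum, although the name of the set describes a single peak. The choice limited stage 5, but not stage 4, to 25% of the peak. Of the 96 genes, 60 had a stage 4 mean under 1 CPM, while 27 already had at least 25% of their later peak at stage 4 and 19 at least 50%. At stage 4, 30 genes had a higher mean than at stage 5. The set therefore held genes with almost no RNA at stage 4 beside genes present at stage 4, low at stage 5 and high again at stage 10 or 12.

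**Figure D1:**
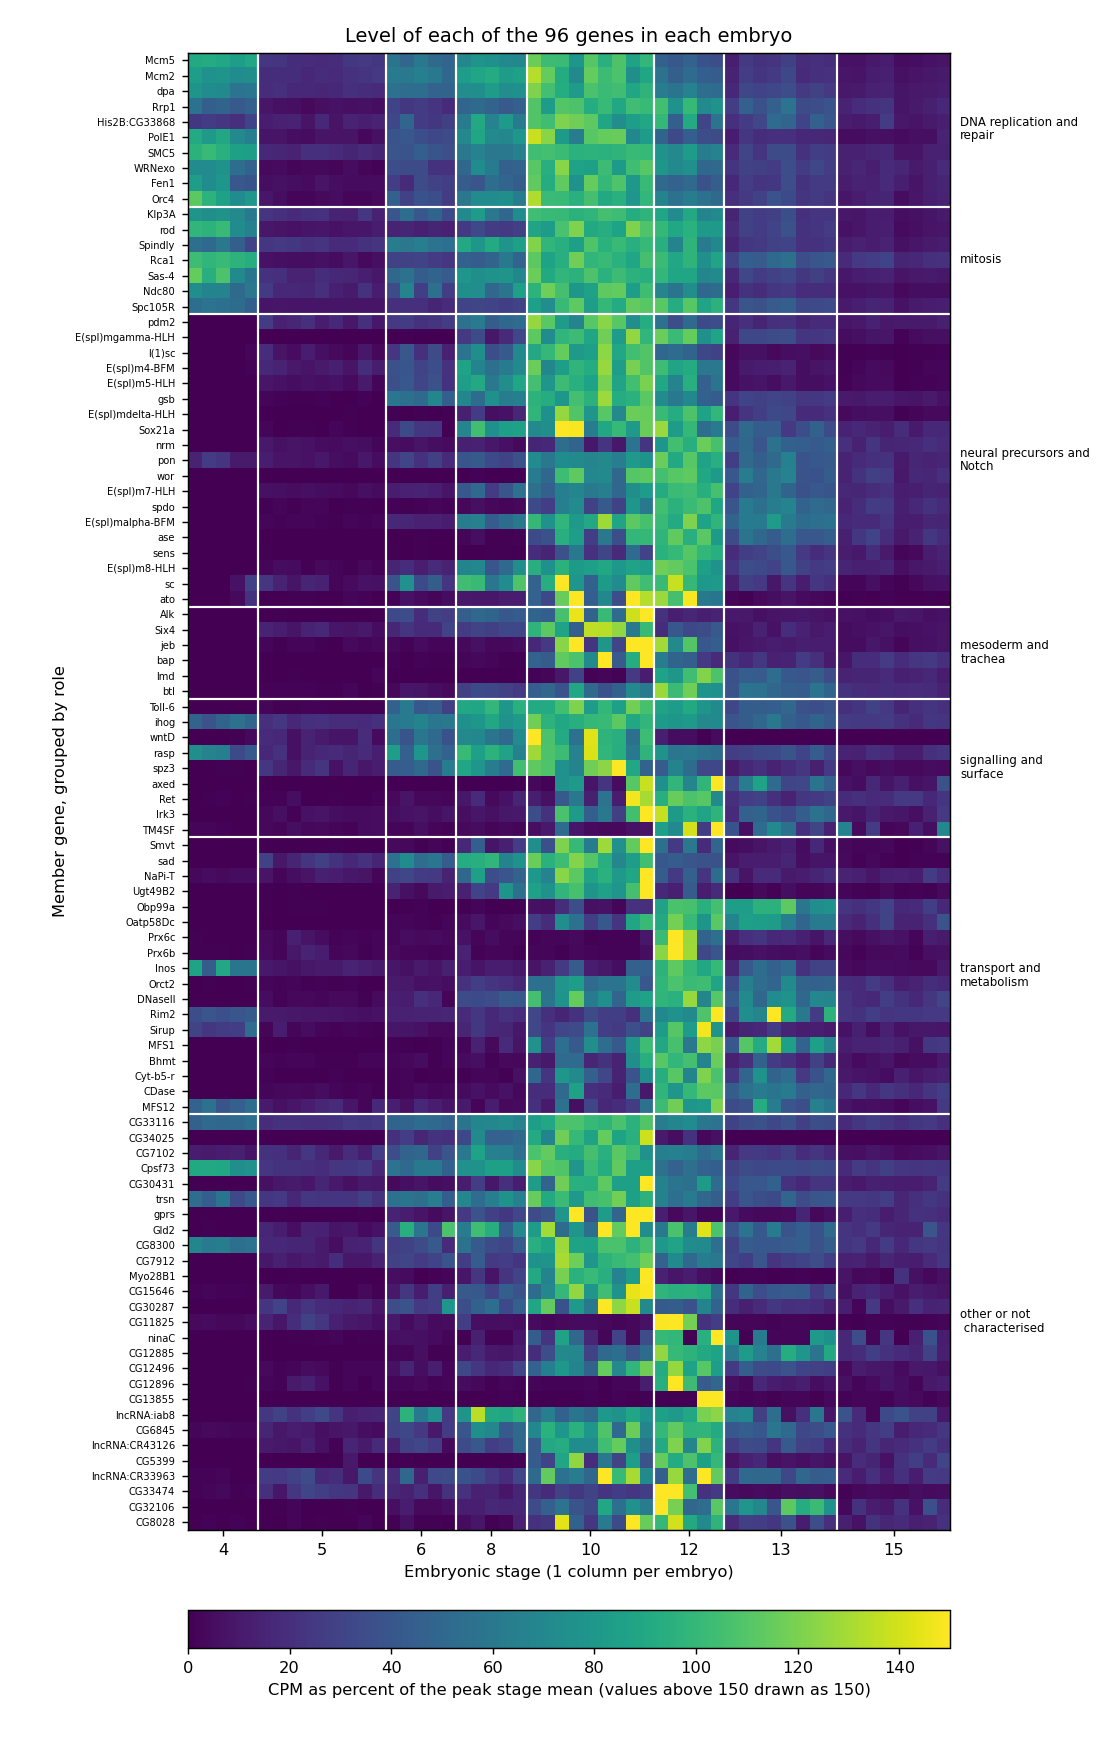
Level of each of the 96 genes (rows, grouped by role) in each of the 54 embryos (columns, by stage), as a percent of the gene's mean CPM at its peak stage. The replication and mitosis genes are bright at stage 4 as well as at stages 10 and 12, while the neural and mesodermal genes are mostly dark before stage 6.

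The members entered and left the period at different times. Genes highest at stage 10 stood at a median of 32.6% of their peak at stage 6 and 63.4% at stage 8, and those highest at stage 12 at 5.60 and 9.68%. After stage 5, the first stage with 50% or more of the peak was stage 6 for 12 genes, stage 8 for 23, stage 10 for 39 and stage 12 for 22. The first of these groups held Mcm2, Mcm5, dpa, gsb, ihog, rasp and Spindly. The peak was narrow for 23 genes, which were at 50% or more of it at 1 stage only, among them lmd, Alk, sens, bap, gprs and CG34025. At stage 13, genes highest at stage 10 had a median of 24.5% of their peak and those highest at stage 12 a median of 42.0%. At that stage 14 genes kept at least 50%, led by Obp99a at 85.2%, MFS1 at 82.3% and CG32106 at 78.9%.

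**Figure D2:**
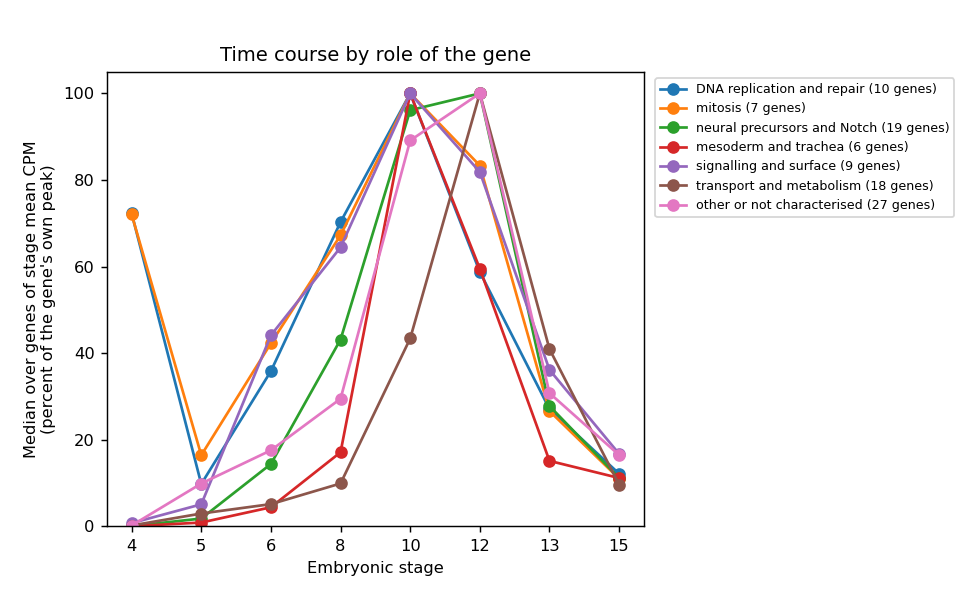
Median over the genes of each role of the stage mean CPM, as a percent of each gene's own peak (vertical axis), at the 8 stages (horizontal axis). Replication and mitosis genes start at medians of 72.3 and 72.0% at stage 4, while the median of the transport and metabolism genes first reaches 50% at stage 12.

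The members were sorted by textbook role after their values were known, so the roles order the description and carry no test. They comprised 10 genes of DNA replication and repair, 7 of mitosis, 19 of neural precursors and Notch signalling, 6 of mesoderm and trachea, 9 of signalling and the cell surface, 18 of transport and metabolism, and 27 others. The time course by role separated early from late peaks. All 10 replication genes and 6 of 7 mitosis genes were highest at stage 10, and 14 of 18 transport and metabolism genes were highest at stage 12.

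From stage 10 to stage 12 the set split. Replication genes, the visceral mesoderm receptor gene Alk and the Wnt-family gene wntD were lower at stage 12. The myoblast regulator lmd and several transporter and enzyme genes were higher. Of the 19 neural precursor and Notch genes, 6 were higher, 3 were lower and 10 were not called. Of the 95 members that passed the low-count filter, 28 were higher at stage 12 (29.5%) and 36 were lower (37.9%) in edgeR's quasi-likelihood test, with Benjamini-Hochberg adjusted p under 0.05 over all genes. Over all 9783 genes tested, 24.5% were higher and 23.4% were lower, 47.9% in all. In 17 members every stage 12 embryo lay above every stage 10 embryo, against 11.3% of all genes, and in 28 every stage 12 embryo lay below, against 9.46%. The median log2 change was -0.05 over the members and -0.01 over all genes tested. Whether a gene counts as highest at stage 10 or at stage 12 rests on the same means, so that label is no further evidence.

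**Figure D3:**
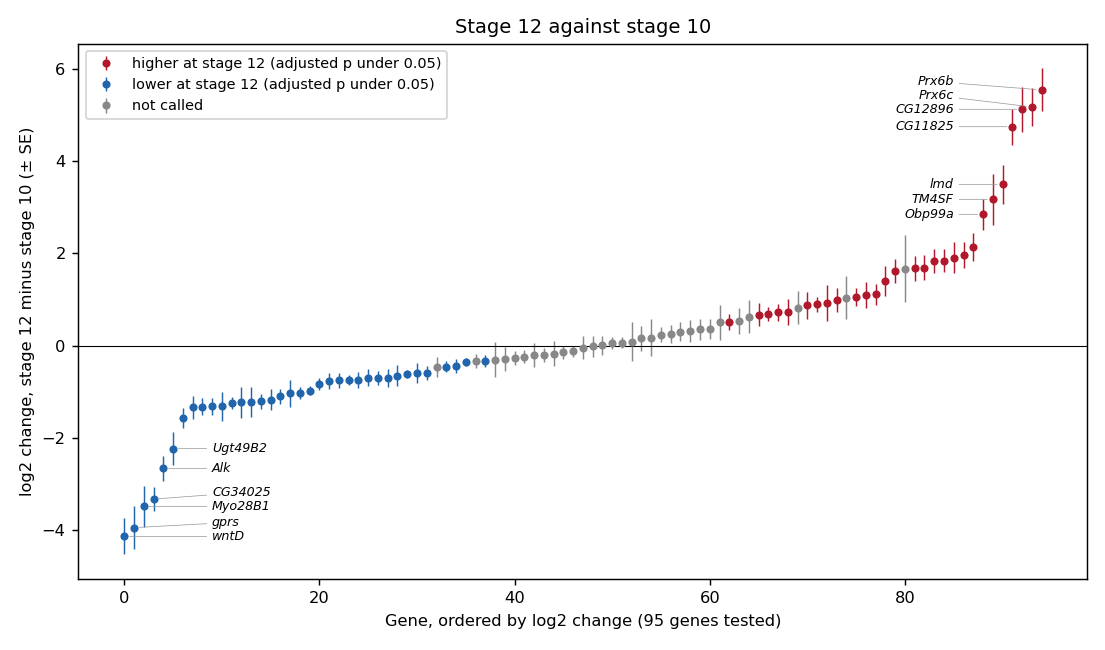
Log2 change of each of the 95 tested genes from edgeR, stage 12 minus stage 10 (vertical axis, points with standard errors), ordered by size (horizontal axis). Changes run from -4.14 for wntD to 5.54 for Prx6b, with 28 genes called higher, 36 called lower and 31 not called.

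Between stages 6 and 8 the members moved one way. Of the 95 tested, 53 were higher at stage 8 (55.8%) and 0 were lower by edgeR, also at an unadjusted p under 0.05 and in DESeq2. Over all genes, 9.8% were higher at stage 8 and 8.65% were lower, 18.5% in all. In 50 members every stage 8 embryo lay above every stage 6 embryo, against 8.96% of all genes, and in 0 members did every stage 8 embryo lie below, against 4.97%. The median log2 change was 0.73 over the members and 0.00 over all genes. The choice sets the same upper bound at both stages, but it also requires a low level before stage 6 and the peak after stage 8, so a rise between these stages is largely built into the set, and the count describes only when the genes came on.

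The DNA replication genes were present at stage 4, lower at stage 5 and higher again from stage 6 to stage 10. The set held Mcm2, Mcm5 and dpa, which encode subunits of the replicative helicase, Orc4 of the origin recognition complex, PolE1, the catalytic subunit of DNA polymerase epsilon, and Fen1, the flap endonuclease. Mcm2 averaged 415, 109, 322, 467, 538, 261, 123 and 52.3 CPM at stages 4, 5, 6, 8, 10, 12, 13 and 15. The low level at stage 5 was required by the choice, while the level at stage 4 only had to stay below the peak. Mcm2 had 306, 243, 282, 240.0 and 232 CPM in stage 12 embryos B, C, D, G and H, against 386 to 718 CPM (median 554) in the 9 stage 10 embryos. No stage 12 embryo reached the lowest stage 10 embryo, and the log2 change was -1.03 ± 0.13 (adjusted p = 8.56e-09). PolE1 had 146, 99.8, 136, 107 and 104 CPM in the same stage 12 embryos, against 191 to 417 CPM (median 337) at stage 10. These groups did not overlap either, and the log2 change was -1.33 ± 0.19 (adjusted p = 4.38e-08). Mcm5, dpa, Fen1 and Orc4 also fell, by log2 changes of -1.25, -0.75, -1.10 and -0.75. In all, 9 of the 10 fell, against 23.4% of all genes tested. Among those 9, His2B:CG33868, a histone gene, lost its call without stage 12 embryo C, G or H (adjusted p 0.0610 to 0.137). The exception was Rrp1, which encodes an endonuclease of base excision repair and had 286 ± 50.6 CPM at stage 12 and 332 ± 31.7 CPM at stage 10 (SD).

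All 10 replication and repair genes were higher at stage 8 than at stage 6, against 55.8% of the members tested and 9.8% of all genes. Such a rise is largely built into the choice. PolE1 had 213, 268, 214, 209.7 and 238 CPM in stage 8 embryos B, C, D, G and H, against 118, 123, 108, 98.6 and 104.8 CPM in the stage 6 embryos of those letters. The groups did not overlap, with a log2 change of 1.00 ± 0.20 (adjusted p = 0.000226). Mcm2 rose by a log2 change of 0.49, dpa by 0.50 and Rrp1 by 0.89. The smaller change of Mcm5, 0.39 ± 0.14 (adjusted p = 0.044), lost its call without any 1 of the stage 8 embryos or without stage 6 embryo C, G or H (adjusted p 0.0540 to 0.1146). Mcm2 lost its call without stage 6 embryo H (adjusted p = 0.0539).

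The mitosis genes, like the replication genes, were present at stage 4, and 2 of 7 were called lower at stage 12. They were Spc105R, Ndc80, rod and Spindly, whose products work at the kinetochore, the kinesin gene Klp3A, the centriole gene Sas-4 and Rca1, which encodes an inhibitor of the anaphase-promoting complex. The kinetochore checkpoint gene rod averaged 277, 28.0, 46.1, 87.4, 318, 284, 84.6 and 26.9 CPM at stages 4, 5, 6, 8, 10, 12, 13 and 15. It stood at 87.2% of its peak at stage 4 and 8.81% at stage 5, where the choice allowed at most 25%. At stage 12, rod had 318, 285, 305, 257 and 256 CPM in embryos B, C, D, G and H, against 265 to 385 CPM (median 297) at stage 10. The groups overlapped and the change was not called. The same was true of Spc105R, Klp3A, Sas-4 and Rca1, with log2 changes of 0.06, -0.34, -0.25 and -0.12, and Klp3A came close to the threshold (adjusted p = 0.0518). Whether the mitosis and replication genes differed in their change was not tested. Ndc80 and Spindly were lower at stage 12, by log2 changes of -0.70 and -0.33. Over all genes tested, 24.5% were higher and 23.4% were lower at that stage. The change of Spindly lost its call without any 1 of 6 embryos, stage 12 embryos C, G and H and stage 10 embryos B, F and H (adjusted p 0.0522 to 0.152). All 7 were higher at stage 8 than at stage 6, with log2 changes from 0.46 for Spindly to 0.88 for rod. Over all genes 9.8% were higher, and a rise of members is largely built into the choice. The calls of Spindly and Ndc80 at stage 8 were lost without any 1 of 4 embryos each (adjusted p 0.0513 to 0.0876). A textbook list of cell cycle genes, of which 2 were members, had 1 of 20 higher and 11 lower at stage 12, with a median log2 change of -0.58, and 5 higher and 0 lower at stage 8.

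**Figure D4:**
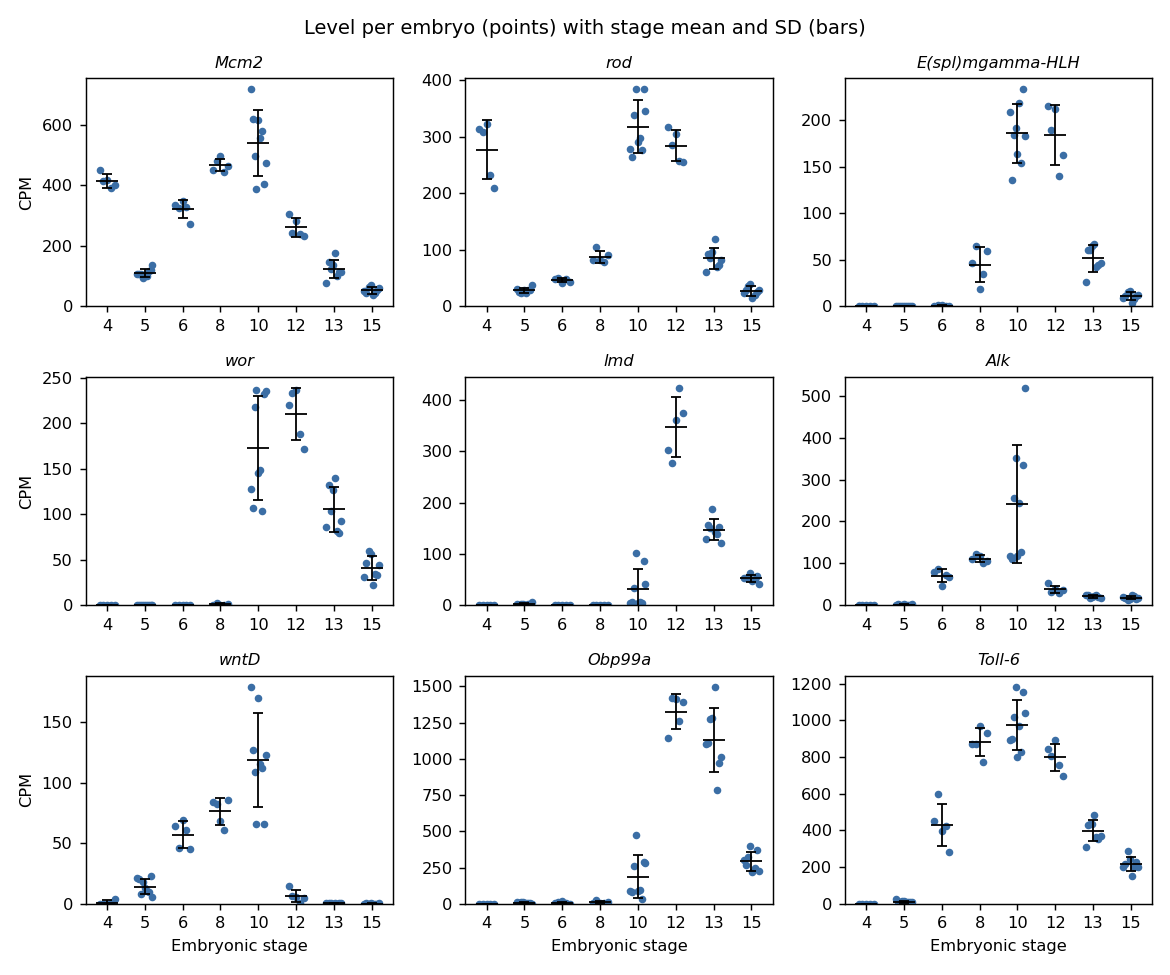
CPM in every embryo (points) with the stage mean and SD (bars) for 9 genes, 1 panel per gene, against embryonic stage. Mcm2 and rod are high at stages 4 and 10 and low at stage 5, wor and E(spl)mgamma-HLH come on after stage 6, lmd jumps between stages 10 and 12, and wntD and Alk drop in the same interval.

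Most neural precursor members had almost no RNA at stage 4, and the choice required a low level at stage 5. The highest stage 4 mean among them was that of pon, at 38.8 CPM. Neural precursor genes outside the set varied. At stage 5, mira and neur averaged 855 and 459 CPM, while ac and nerfin-1 averaged 2.03 and 8.68 CPM. Of the 19 genes placed with neural precursors and Notch signalling, 15 had under 1 CPM at stage 4, and the median stage 4 level was 0.0279% of the peak. The members included the proneural genes l(1)sc, sc and ato, the neuroblast transcription factor genes wor and ase, sens, which sustains proneural activity in sensory organ precursors, and pdm2, a POU factor of the neuroblast temporal series. They also included pon and spdo, whose products act in asymmetric division and Notch signalling between daughter cells. At stage 12, 6 of the 19 were higher, 3 were lower and 10 were not called. Over all genes tested, 24.5% were higher and 23.4% were lower.

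The onset of wor was abrupt. It averaged 0, 0.0876, 0.224, 0.892, 173, 209.8, 105.1 and 40.9 CPM at stages 4, 5, 6, 8, 10, 12, 13 and 15. Individual stage 8 embryos had 0.264, 2.71, 0, 0.336 and 1.15 CPM, while stage 10 embryos had 103 to 236 CPM (median 149). No stage 8 embryo approached the lowest stage 10 embryo. At stage 12, wor had 220.1, 233, 236, 187 and 172 CPM in embryos B, C, D, G and H, which overlapped the stage 10 range, and the change was not called. The neuroblast gene ase reached 115.1, 133, 111, 131 and 95.4 CPM in those embryos, against 31.6 to 117 CPM (median 70.1) at stage 10. The ranges overlapped, and the log2 change of 0.67 ± 0.24 (adjusted p = 0.0209) was lost without stage 12 embryo G (adjusted p = 0.0514).

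The 6 genes of this group called higher at stage 12 were sens, spdo, nrm, pon, ase and E(spl)m7-HLH. The zinc finger gene sens had 109.6, 114.6, 126, 114 and 107 CPM in stage 12 embryos B, C, D, G and H, against 17.6 to 69.3 CPM (median 34.8) at stage 10. The stages did not overlap, with a log2 change of 1.68 ± 0.27 (adjusted p = 6.37e-07). For spdo the values were 198, 183, 194, 205 and 168 CPM at stage 12, against 52.1 to 149 CPM (median 80.7) at stage 10. These did not overlap either, and the log2 change was 1.06 ± 0.20 (adjusted p = 1.77e-05). The cell adhesion gene nrm rose by 1.83 ± 0.27 (adjusted p = 9.97e-08) and pon by 0.52 ± 0.18 (adjusted p = 0.0131). The genes that fell were pdm2, l(1)sc and gsb. The temporal gene pdm2 had 174, 112, 161, 106 and 111 CPM in stage 12 embryos, against 210.4 to 395 CPM (median 346) at stage 10. All stage 12 embryos were below all stage 10 embryos, with a log2 change of -1.21 ± 0.17 (adjusted p = 3.77e-08). The proneural gene l(1)sc fell by a log2 change of -1.23 ± 0.32 (adjusted p = 0.00125), also without overlap, and the segment polarity gene gsb by -0.75 ± 0.16 (adjusted p = 9.57e-05).

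The member genes of the achaete-scute complex differed in their timing. The members l(1)sc, sc and ase lie on the X, sc at X:396060-397497, l(1)sc at X:409721-410817 and ase at X:460747-463176 in build BDGP6.54, each with 1 exon on the plus strand. On average l(1)sc had 47.1, 100.3, 178, 75.9 and 8.97 CPM at stages 6, 8, 10, 12 and 13. For sc those means were 10.5, 21.8, 21.6, 24.5 and 4.74 CPM, and for ase 0.317, 2.59, 74.3, 117 and 53.8 CPM. At stage 6 l(1)sc was already at 26.4% of its peak, while ase was at 0.271%. At stage 8 l(1)sc rose by 1.05 ± 0.35 (adjusted p = 0.0306), a call lost without any 1 of 5 embryos, stage 8 embryos C and H and stage 6 embryos B, D and H (adjusted p 0.0607 to 0.107). The rise of ase at stage 8 was 2.77 ± 0.73 (adjusted p = 0.00471), from 8 reads in all at stage 6. Rises of members at stage 8 are largely built into the choice. The change of sc was not called in either contrast. The proneural gene ato, of eye and chordotonal organ precursors, had 28.0, 23.3, 32.5, 13.2 and 12.8 CPM in stage 12 embryos, against 7.08 to 45.0 CPM (median 15.4) at stage 10. The groups overlapped, and ato was back to 0.836 CPM at stage 13. In a textbook list of neural precursor genes, which held 6 members, 9 of 26 tested were higher and 6 lower at stage 12, and 9 were higher and 1 lower at stage 8. In the list of 7 neuroblast temporal genes, of which pdm2 was a member, 3 were higher and 3 lower at stage 12. Over all genes tested, 24.5% were higher and 23.4% lower at stage 12, and 9.8% higher and 8.65% lower at stage 8.

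All 7 members of the E(spl) complex, whose genes are transcribed in response to Notch, were higher at stage 8 than at stage 6. Over all genes 9.8% were higher, and a rise of members is largely built into the choice. Members of the E(spl) complex were the bHLH repressor genes E(spl)mgamma-HLH, E(spl)mdelta-HLH, E(spl)m5-HLH, E(spl)m7-HLH and E(spl)m8-HLH and the Bearded-family genes E(spl)m4-BFM and E(spl)malpha-BFM. E(spl)mgamma-HLH had 46.1, 64.9, 18.3, 34.6 and 59.9 CPM in stage 8 embryos B, C, D, G and H, against 0.503, 1.11, 0.921, 0.775 and 0 in stage 6 embryos of those letters. The stages did not overlap, and the log2 change was 6.02 ± 0.42 (adjusted p = 1.57e-15), resting on 15 reads in all at stage 6. E(spl)mdelta-HLH had 14.3, 28.0, 6.62, 8.07 and 17.2 CPM in the stage 8 embryos, against 0.754, 0.554, 0.921, 0.516 and 0.819 in the stage 6 embryos. Its log2 change was 4.25 ± 0.45 (adjusted p = 5.07e-10), on 17 reads at stage 6. The embryos with the lowest stage 8 values of both genes were D and G. Both genes were far higher again at stage 10, where the means were 186 CPM for E(spl)mgamma-HLH and 106 CPM for E(spl)mdelta-HLH.

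The remaining members of the complex were on earlier and rose less. E(spl)m7-HLH and E(spl)m8-HLH rose by log2 changes of 1.78 and 1.89 at stage 8, E(spl)malpha-BFM by 1.93, E(spl)m5-HLH by 1.19 and E(spl)m4-BFM by 1.00. The call of E(spl)m4-BFM was lost without stage 6 embryo H (adjusted p = 0.0581). In all 7, every stage 8 embryo lay above every stage 6 embryo, as in 50 of the 96 members and 8.96% of all genes tested. At stage 12 only E(spl)m7-HLH was called, with 194, 214, 218, 199 and 223 CPM in stage 12 embryos B, C, D, G and H, against 96.7 to 174 CPM (median 135) at stage 10. Every stage 12 embryo was above every stage 10 embryo, and the log2 change was 0.68 ± 0.16 (adjusted p = 0.000264). E(spl)mgamma-HLH averaged 184 ± 32.2 CPM at stage 12 and 186 ± 31.5 CPM at stage 10 (SD). At stage 13 they parted. E(spl)malpha-BFM then had 60.2% of its peak, E(spl)m7-HLH 43.8% and E(spl)mgamma-HLH 27.7%, while E(spl)m4-BFM and E(spl)m5-HLH had 9.67 and 6.78%. Over the whole list of 15 E(spl) and Bearded-family genes, 9 were higher and 0 lower at stage 8 by edgeR, with a median log2 change of 1.29. These 9 were the 7 members, E(spl)mbeta-HLH and E(spl)m2-BFM, so the count mostly repeats the chosen genes. Not called at stage 8 were E(spl)m3-HLH, E(spl)m6-BFM, Tom, Brd, BobA and Ocho. At stage 12, 4 of the 15 were higher and 0 lower, against 24.5 and 23.4% of all genes tested.

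Of the 6 mesodermal and tracheal genes, lmd, Alk, Six4 and bap were at 50% or more of their peak at 1 stage only, and all 6 had under 1 CPM at stage 4. At stage 12, lmd and btl were higher, Alk, Six4 and bap were lower and jeb was not called. The transcription factor gene lmd, which is required in fusion-competent myoblasts, averaged 0, 1.67, 0.342, 0.296, 32.2, 348, 147 and 52.3 CPM at stages 4, 5, 6, 8, 10, 12, 13 and 15. At stage 12, lmd had 302, 276, 362, 423 and 375 CPM in embryos B, C, D, G and H, against 4.53 to 101 CPM (median 6.46) at stage 10. No stage 10 embryo reached the lowest stage 12 embryo, and the log2 change was 3.496 ± 0.42 (adjusted p = 1.22e-09). The opposite course was that of Alk, the receptor tyrosine kinase gene of the visceral mesoderm. Alk had 51.5, 30.0, 39.1, 30.0 and 36.1 CPM in the stage 12 embryos, against 109.6 to 519 CPM (median 245) at stage 10. All stage 12 embryos lay below all stage 10 embryos, with a log2 change of -2.67 ± 0.28 (adjusted p = 2.04e-11).

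The gene of the Alk ligand, jeb, did not share that call. It had 65.1, 35.5, 55.4, 20.6 and 23.0 CPM in stage 12 embryos B, C, D, G and H, against 8.30 to 119.9 CPM (median 40.0) at stage 10, and the stages overlapped. The visceral mesoderm homeobox gene bap had 28.2, 21.4, 20.01, 10.9 and 7.85 CPM in the stage 12 embryos, against 18.9 to 100.2 CPM (median 41.2) at stage 10. The ranges overlapped in 3 stage 12 embryos, and the log2 change was -1.32 ± 0.31 (adjusted p = 0.000357). Six4, a homeobox gene of the mesoderm, fell by -1.57 ± 0.22 (adjusted p = 5.35e-08), with no overlap. The fibroblast growth factor receptor gene btl, which tracheal cells need to migrate, had 270.1, 216, 249, 165 and 160.2 CPM in stage 12 embryos, against 80.7 to 189.9 CPM (median 104.8) at stage 10. Stage 12 embryos G and H lay within the stage 10 range, and the log2 change was 0.89 ± 0.17 (adjusted p = 2.38e-05). At stage 8 btl was the 1 gene of the 6 that was called. It had 60.0, 71.4, 69.2, 61.8 and 53.7 CPM, against 6.536, 19.7, 17.05, 12.1 and 7.92 in stage 6 embryos. The log2 change was 2.31 ± 0.23 (adjusted p = 1.03e-10), and such a rise is largely built into the choice.

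Textbook lists for these tissues were set beside the members for the change from stage 10 to stage 12. Over all genes tested, 24.5% were higher at stage 12 and 23.4% were lower. Of 9 myoblast fusion genes tested, 8 were higher and 0 lower by edgeR, with a median log2 change of 1.86, and lmd was the 1 member among them. Of 20 muscle identity genes, 14 were higher and 3 lower, with a median of 0.60. Of 12 tracheal genes, 9 were higher and 0 lower, with a median of 0.49. Of 8 visceral mesoderm genes, which held 3 members, 2 were higher and 2 lower. Lists for heart, glia, hemocytes, gut, cell death, head and appendage primordia held 0 members. 

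Signalling and surface genes included an early and a late group. The Toll-family receptor gene Toll-6 averaged 0.121, 11.6, 430.2, 882, 975, 798, 397 and 216 CPM at stages 4, 5, 6, 8, 10, 12, 13 and 15. At stage 8, Toll-6 had 869, 868, 970.1, 774 and 929 CPM in embryos B, C, D, G and H, against 452, 600.1, 395, 424 and 279 in the stage 6 embryos of those letters. No embryos overlapped, and the log2 change was 0.99 ± 0.18 (adjusted p = 4.37e-05), while the change at stage 12 was not called. A member's rise at stage 8 is largely built into the choice. The hedgehog co-receptor gene ihog and rasp, whose product acylates Hedgehog, were present from stage 4 and fell at stage 12 by log2 changes of -0.36 and -0.70. The spätzle-family ligand gene spz3 fell by -1.18 ± 0.23 (adjusted p = 2.02e-05). The steepest fall of the whole set was that of wntD, a Wnt-family gene that restrains Toll signalling in the early embryo. wntD had 14.8, 6.13, 5.94, 0.952 and 5.10 CPM in stage 12 embryos B, C, D, G and H, against 65.6 to 179 CPM (median 116) at stage 10. The stages did not overlap, and the log2 change of -4.14 ± 0.39 (adjusted p = 8.83e-13) became -4.81 without stage 12 embryo B.

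In the late group, TM4SF encodes a tetraspanin, Ret a receptor tyrosine kinase, Irk3 an inwardly rectifying potassium channel, and axed a mediator of axon degeneration. TM4SF had 18.2, 15.3, 30.1, 5.55 and 38.1 CPM in stage 12 embryos, against 0.834 to 11.3 CPM (median 1.57) at stage 10. Its log2 change of 3.17 ± 0.56 (adjusted p = 4.50e-06) became 3.98 without stage 10 embryo D, the 1 stage 10 embryo above 2.14 CPM. Only 72.0% of the reads of TM4SF, 68.1% of those of Ret and 70.2% of those of Irk3 were on the gene's own strand, so their values are uncertain. The change of Ret, 0.92 ± 0.39 (adjusted p = 0.0496), lost its call without any 1 of 11 of the 14 embryos. Of 16 genes of the Wnt, Hedgehog and Dpp list, with wntD as a member, 5 were higher and 6 lower at stage 12. Of 18 genes of the EGF and FGF list, with btl as a member, 4 were higher and 5 lower. Over all genes tested, 24.5% were higher and 23.4% were lower.

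Transport and metabolism genes were mostly late. Of 18, 13 were higher at stage 12 and 4 were lower, against 24.5 and 23.4% of all genes tested. Only the nuclease gene DNaseII was not called. The roles were given after the values were known, so these counts describe the set. The odorant-binding protein gene Obp99a averaged 0.137, 7.29, 8.22, 11.1, 188, 1325, 1128 and 294 CPM at stages 4, 5, 6, 8, 10, 12, 13 and 15. At stage 12, Obp99a had 1141, 1418, 1409.9, 1261 and 1393 CPM in embryos B, C, D, G and H, against 33.0 to 478 CPM (median 96.3) at stage 10. The stages did not overlap, and the log2 change was 2.84 ± 0.33 (adjusted p = 4.30e-10). The organic anion transporter gene Oatp58Dc had 345, 453, 389, 296 and 425 CPM in the stage 12 embryos, against 73.1 to 386 CPM (median 158) at stage 10. Its ranges overlapped, with a log2 change of 0.98 ± 0.26 (adjusted p = 0.00142). Inos, which encodes the first enzyme of inositol synthesis, had 169, 195, 174, 155 and 175 CPM at stage 12, against 9.82 to 79.7 CPM (median 23.6) at stage 10. The groups did not overlap, and the log2 change was 2.14 ± 0.31 (adjusted p = 6.48e-08). Inos had also been at 67.5% of its peak at stage 4.

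Further genes of this group rose at stage 12, the mitochondrial carrier gene Rim2 by a log2 change of 1.83, Sirup, an assembly factor of succinate dehydrogenase, by 1.62, the ceramidase gene CDase by 1.69 and the organic cation transporter gene Orct2 by 0.72. Bhmt, which encodes a homocysteine methyltransferase, rose by 1.39. The rise of the transporter gene MFS1, 0.72 ± 0.28 (adjusted p = 0.0307), lost its call without any 1 of 6 embryos, stage 12 embryos C, G and H and stage 10 embryos C, E and H (adjusted p 0.0538 to 0.0919). The genes that fell were the vitamin transporter gene Smvt, the phosphate transporter gene NaPi-T, the ecdysone synthesis gene sad and the glycosyltransferase gene Ugt49B2. Smvt had 65.98, 30.6, 71.5, 21.1 and 57.9 CPM in stage 12 embryos, against 43.7 to 223 CPM (median 119.8) at stage 10. The ranges overlapped in part, and the log2 change was -1.23 ± 0.34 (adjusted p = 0.00242). At stage 8 Smvt had 20.2, 52.9, 10.1, 15.5 and 32.1 CPM, against 4.53, 3.88, 1.38, 2.58 and 1.36 in stage 6 embryos. Its log2 change was 3.09 ± 0.49 (adjusted p = 3.86e-06), and such a rise is largely built into the choice. Ugt49B2 fell at stage 12 by -2.23 ± 0.36 (adjusted p = 7.99e-07). At stage 8, 9 of the 18 were higher, against 55.8% of the members tested and 9.8% of all genes. Of these, Oatp58Dc lost its call without stage 8 embryo C (adjusted p = 0.0873), NaPi-T without stage 8 embryo C or stage 6 embryo H (adjusted p 0.0932 and 0.0549), and sad without any 1 of 8 of the 10 embryos (adjusted p 0.0553 to 0.144).

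The largest rises at stage 12 came from neighbouring genes on 2R. Prx6c and Prx6b, which encode peroxiredoxins, enzymes that reduce peroxides, lie at 2R:10418718-10419761 and 2R:10424436-10425471 on the plus strand. CG11825 at 2R:10420414-10423650 lies between them on the minus strand, with CG33474 at 2R:10421706-10422989 inside it on the plus strand, and CG12896 follows at 2R:10426880-10427915 on the minus strand. Prx6c had 389, 635, 484, 181 and 209 CPM in stage 12 embryos B, C, D, G and H, against 3.99 to 37.2 CPM (median 6.29) at stage 10. Its stages did not overlap, and the log2 change was 5.18 ± 0.42 (adjusted p = 7.88e-15). CG11825 had 620.1, 761, 493.5, 91.8 and 116 CPM in the stage 12 embryos, against 8.77 to 29.6 CPM (median 16.4) at stage 10, with a log2 change of 4.75 ± 0.39 (adjusted p = 1.31e-14). Prx6b had 298, 424, 311, 78.4 and 96.6 CPM at stage 12, against 2.13 to 13.1 CPM (median 4.29) at stage 10, with a log2 change of 5.54 ± 0.47 (adjusted p = 2.76e-14). In these genes stage 12 embryos B, C and D were high and embryos G and H lower, yet all were above stage 10. CG12896 rose by 5.12 ± 0.48 (adjusted p = 8.87e-13), or by 5.75 without stage 10 embryo J. CG33474 had 41.2, 49.6, 27.5, 5.55 and 6.67 CPM in the stage 12 embryos, against 4.72 to 7.98 CPM (median 6.30) at stage 10, so that embryos G and H lay within the stage 10 range, and its log2 change was 1.97 ± 0.28 (adjusted p = 8.22e-08). The peroxiredoxin copies may share reads, and 75.2% of the reads of CG33474 were on its own strand, so their separate values are uncertain. At stage 13 Prx6c was at 16.0% of its peak, Prx6b at 5.14% and CG11825 at 2.03%.

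Among the 27 other genes, 5 were higher at stage 12, 11 were lower, 10 were not called and 1 was not tested. Over all genes tested, 24.5% were higher and 23.4% were lower. CG34025, a gene with no name, averaged 0, 0.0916, 29.1, 68.9, 138, 13.3, 0.360 and 0.277 CPM at stages 4, 5, 6, 8, 10, 12, 13 and 15. Its peak was 496 times the higher of its means at stages 5 and 15, the largest such ratio of the set, and ato followed with 155. CG34025 had 14.9, 7.96, 29.9, 4.12 and 9.42 CPM in stage 12 embryos B, C, D, G and H, against 93.5 to 191 CPM (median 131) at stage 10. The stages did not overlap, and the log2 change was -3.33 ± 0.26 (adjusted p = 1.07e-14). Myo28B1, which encodes an unconventional myosin, had 4.47, 3.06, 3.96, 2.06 and 0.981 CPM in the stage 12 embryos, against 21.9 to 59.9 CPM (median 31.3) at stage 10. It fell without overlap, by -3.49 ± 0.44 (adjusted p = 5.25e-09). At stage 8 Myo28B1 rose by 2.504 ± 0.54 (adjusted p = 0.000605), or by 3.14 without stage 6 embryo B. That rise is largely built into the choice. CG33116, which also has no name, fell by -0.62 ± 0.08 (adjusted p = 1.25e-08). Cpsf73, which encodes the endonuclease that cuts the ends of pre-mRNA, and trsn, the translin gene, fell by -0.98 and -0.83. Both had been present at stage 4, at 84.3 and 46.2% of their peaks.

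Embryos of a stage differed from each other. At stage 10 the coefficient of variation between embryos had a median of 40.2% over the 34 members highest at stage 12 that reached 20 CPM at stage 10, 16.8% over the 50 members highest at stage 10 and 13.7% over 4886 tested genes at that level. Among members highest at stage 12, the 4 embryos D, E, I and J were most often high. Of the 46 members highest at stage 12, embryo I was among the top 3 of the 9 stage 10 embryos for 32, J for 31, E for 25 and D for 21, and G, B, F, H and C for 8, 7, 6, 5 and 3. Those shares were 69.6, 67.4, 54.35 and 45.7% for I, J, E and D, against 38.8, 30.3, 39.1 and 28.7% of all genes tested. Among the 725 other tested genes highest at stage 12 they were 73.1, 36.6, 51.7 and 30.9%, so embryos I and E stood out there too. Members highest at stage 10 had another order, with B among the top 3 for 24 of the 50, J for 22, G for 19, D for 17, E for 16 and I for 12. In stage 10 embryos D, E, I and J, lmd had 33.8, 101, 85.99 and 41.7 CPM, and in B, C, F, G and H 4.53 to 6.46 CPM. For axed the values were 51.2, 54.0, 73.9 and 91.6 CPM in D, E, I and J, and 1.07 to 15.4 CPM in the others. Inos stood at 44.2, 75.7, 79.7 and 79.6 CPM in those 4 embryos, and at 9.82 to 23.6 CPM in the others. Alk, 1 of the members highest at stage 10, also had these 4 embryos above the rest, with 257, 353, 335 and 519 CPM, and embryo G close behind at 245 CPM. These embryos and genes were picked out after their values were seen, and no test compares them.

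At stage 12 the embryos divided in another way. Of the 50 members highest at stage 10, stage 12 embryo B was among the top 2 of 5 for 42 and D for 38, while G and H were among the lowest 2 for 44 and 38. The top shares of B and D were 84.0 and 76.0%, against 42.5 and 39.0% of all genes tested, and the lowest shares of G and H were 88.0 and 76.0%, against 34.7 and 36.5%. Among the 742 other tested genes highest at stage 10, the top shares of B and D were 51.5 and 45.55%. The lowest shares of G and H were 45.3 and 51.1% there, so part of the division was seen beyond the members. Among members highest at stage 12 the top ranks did not divide in that way. Embryo C was among the top 2 for 26 of 46, B for 18, H for 17, G for 16 and D for 15. Embryo G was again often low, among the lowest 2 for 27 of these 46 (58.7%), and H was for 19 (41.3%). The coefficient of variation at stage 12 had a median of 19.96% over the 46 members highest at stage 12, 16.6% over 38 members highest at stage 10 and 10.3% over 4984 tested genes of at least 20 CPM. CG13855 was the most uneven member. It had 0.515, 0, 0, 112 and 119.9 CPM in stage 12 embryos B, C, D, G and H, against 0 to 0.702 CPM (median 0.214) at stage 10. Its place in the set thus rests on embryos G and H, and it did not pass the low-count filter. The myosin III gene ninaC, known from photoreceptors, had 136, 135, 1.32, 129 and 276 CPM in stage 12 embryos B, C, D, G and H, against 2.502 to 117 CPM (median 40.5) at stage 10. In stage 13 embryos A, B, C, D, F, G, H and I, ninaC had 105.3, 1.47, 83.1, 2.89, 3.74, 3.30, 109 and 102 CPM. Embryos A, C, H and I thus lay far above embryos B, D, F and G at stage 13, and embryo D lay far below the others at stage 12. The change of ninaC at stage 12 was not called.

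**Figure D5:**
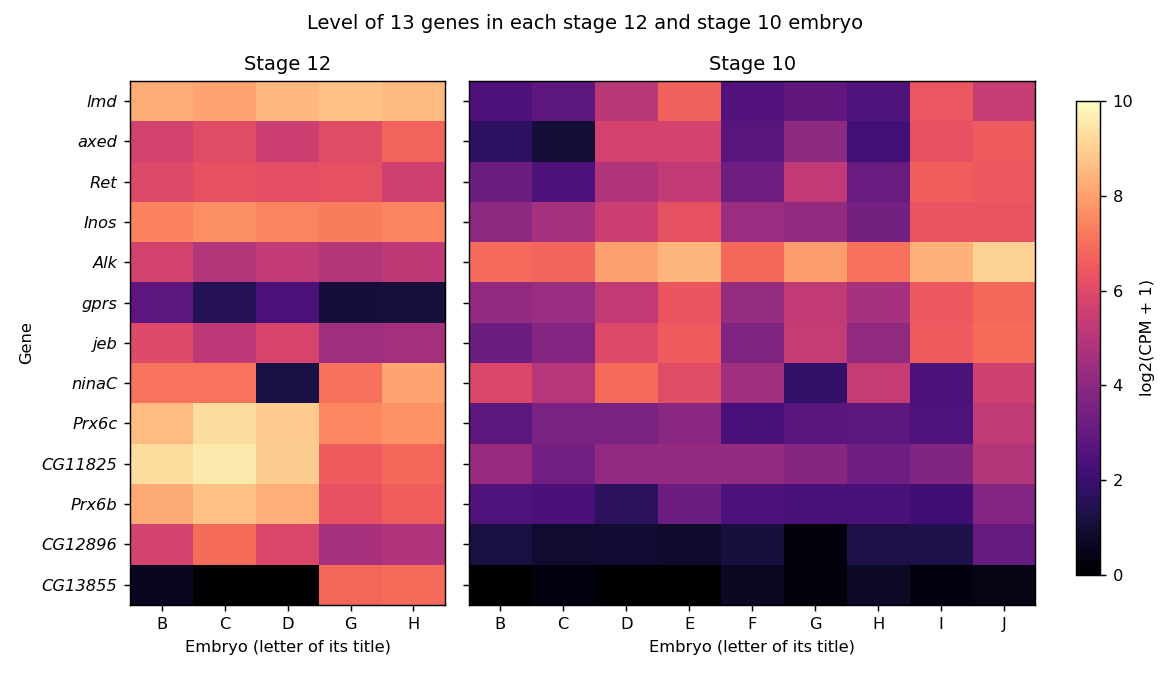
Level of 13 genes (rows) in each stage 12 embryo (left) and each stage 10 embryo (right), coloured by log2(CPM + 1). Stage 10 embryos D, E, I and J are brighter than the others for lmd, axed, Inos, Alk and jeb, and CG13855 is bright in stage 12 embryos G and H only.

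The members also had a position in the genome that the choice did not use. Of the 96, 33 lay on 3R (34.4%, against 24.6% of the 9698 tested genes with a position), 21 on 2R (21.9%, against 20.3%), 18 on 2L (18.8%, against 17.9%), 13 on 3L (13.54%, against 19.6%), 11 on the X (11.5%, against 16.6%) and 0 on chromosome 4 (0.887% of tested genes). Genes with a single exon block numbered 21 (21.9%, against 13.6%). The median exonic length was 2143 bases in the members and 2090 in the tested genes. Members were next to each other, with no start of another tested gene between them, at several places. On 3R these were E(spl)mdelta-HLH with E(spl)mgamma-HLH, E(spl)m4-BFM with E(spl)m5-HLH, and E(spl)m7-HLH with E(spl)m8-HLH, within 3R:25997621-26041008, and bap with Ugt49B2. On 2L they were spz3 with CG7102, and on the X the achaete-scute genes named above.

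The pair Alk and gprs on 2R lay 1231 bases apart and fell together. Alk lies at 2R:16625293-16640011 on the minus strand and gprs at 2R:16641243-16651125 on the plus strand. gprs had 6.19, 1.84, 4.40, 1.11 and 1.18 CPM in stage 12 embryos B, C, D, G and H, against 16.6 to 111 CPM (median 37.8) at stage 10. Its stages did not overlap, and the log2 change was -3.95 ± 0.47 (adjusted p = 1.09e-09). In stage 10 embryos D, E, I and J gprs had 37.8, 82.3, 86.9 and 111 CPM, and in the others 16.6 to 39.6 CPM. The neighbours bap and Ugt49B2 both fell at stage 12 too, as did spz3 and CG7102, by log2 changes of -1.18 and -0.70. Of all members tested, 37.9% were lower. Other neighbours did not share a call. On the X l(1)sc fell, ase rose and sc was not called, and E(spl)m7-HLH rose while E(spl)m8-HLH was not called. The other E(spl) pairs were not called. Genes that overlap others could not be separated in counts without strand. Besides Ret, Irk3, TM4SF and CG33474, under 80% of reads were on the gene's own strand for lncRNA:iab8 (67.3%), sad (75.7%), MFS12 (75.6%), CG7912 (32.2%) and CG30287 (12.2%), whose values are uncertain. His2B:CG33868 is 1 of many near-identical histone gene copies, and its count cannot be assigned to that copy alone.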

How the data were processed

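RNA was measured in 54 single embryos at 8 stages. The authors deposited whole-number counts of reads per gene for each embryo, not normalized, and per the submitters' processing notes reads were aligned with STAR 2.5.3a to build dm6. Per the labels' protocols, synthetic spike-in RNA was added and ribosomal RNA was depleted. Which annotation the counts rest on is not given in the labels or notes. Counts without regard to strand were used, because 8 of the libraries were not directional. Unmapped reads and those in no gene or several genes were left out.

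Levels are CPM over each embryo's total gene counts, with no correction for gene length, so levels are not compared between genes. Gene symbols and positions were taken from release 115 of BDGP6.54, which matched 17343 of 17481 identifiers. Tests used edgeR 4.0.16 in R 4.3.3, as 1 quasi-likelihood fit of all 54 embryos with TMM scaling, stage as the only term and edgeR's own low-count filter, which kept 9783 genes and 95 of the 96 members. The common biological coefficient of variation was 0.191. Adjusted p-values are two-sided Benjamini-Hochberg values over those genes, called under 0.05. Errors of log2 changes are standard errors computed from the fold change and its F statistic. The procedure was tested on simulated data. At the median depth of 4713817 gene counts, genes of a few CPM rest on few reads, and counting error is then large.

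Members were described in full where they had the highest peaks, the highest ratio of peak to stages 5 and 15, the largest called changes, a place on a textbook list or a neighbouring member. Others were chosen after their values were seen. The members and lists were chosen with earlier results of these data known. Alternatives were DESeq2 1.42.0 and its size factors, no filter, the compared stages alone, the title letter as a block, strand counts and leaving out each embryo. Promoter and protein sequences were not used here.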

Additional observations from a re-analysis of the deposited data

Results flagged for a closer look

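Among the members, 104 groups of embryos were looked at, and in 5 the highest embryo lay far from the nearest of the others relative to the spread of its stage. The criterion, Dixon's ratio of gap to range, is built so that chance marks about 1 group in 20. At stage 10, embryo B had the highest level of the origin recognition gene Orc4, at 102.4 CPM. Stage 10 embryo J had the highest levels of Myo28B1, at 59.94 CPM, and Ugt49B2, at 51.67 CPM. CG8300 was highest in stage 10 embryo D, at 46.6 CPM. At stage 12, embryo B had the highest level of the potassium channel gene Irk3, at 53.44 CPM.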

How the results depend on the processing

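The rule found 96 genes with stage medians in place of means (88 shared with the set described), 92 with TMM library sizes (85 shared), 93 without the non-directional libraries (92 shared) and 96 with strand counts (91 shared). Leaving out 1 embryo gave 92 to 101. At stage 12, the numbers of members higher and lower were 30 and 36 with DESeq2 size factors, 26 and 36 in DESeq2, 28 and 35 without a filter, 27 and 40 with both stages alone, and 28 and 37 with strand counts. They were 25 to 30 and 32 to 38 without 1 embryo. At stage 8, 50 to 56 members were higher under these settings, 45 to 55 without 1 embryo, and 0 were lower under any. With the title letter as a replicate block, 32 were higher and 37 lower at stage 12, and 59 higher and 0 lower at stage 8. Deviations from the stage means correlated by -0.0429 to 0.245 between same-letter embryos and by -0.208 to 0.22 between embryos of different letters. Between stages 8 and 6 every same-letter value was positive, 0.00364 to 0.176. These values do not settle whether letters pair embryos. The main fit had no block because the labels do not say what the letters mean. Under the block, bap (adjusted p = 0.094), CG30431 (0.0614) and CG32106 (0.161) were no longer called. Of 2124 recomputed single-gene changes, 93 lost their call, in 22 of 117 results, and 0 changed sign. In DESeq2 these were MFS1 (adjusted p = 0.0506) and Ret (0.0973) at stage 12, and l(1)sc (0.0771) and spz3 (0.0516) at stage 8. With both stages alone, ase (0.0797) and Ret (0.214) were lost at stage 12, and Ndc80 (0.0853) at stage 8. Without a filter, Ret (0.059) and Spindly (0.0805) were lost at stage 12, and Mcm5 (0.0612), sad (0.075) and spz3 (0.0763) at stage 8. Strand counts lost CG7912 (0.105) and Ret (0.0716) at stage 12 and spz3 (0.0641) at stage 8. DESeq2 size factors lost spz3 (0.0516) at stage 8. The cause was not tested. Depth limits genes of a few CPM.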
